A study of Mus musculus with 12 samples.

Results

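The immunoglobulin heavy and light chain genes were examined in kidney cortex of mice with and without a constitutively active HIF1α in the proximal tubule. Their members were chosen by gene symbol and by read number. A row of the count table entered if its symbol named a heavy chain constant region (Ighm, Ighd, Ighg, Igha or Ighe), a heavy, kappa or lambda variable segment, Igkc or a lambda constant region, and if it held 20 or more reads over all 12 libraries. Of 97 rows with such a symbol, 72 were members and 25 fell below the minimum, 8 of them with 0 reads, out of 37681 genes in the table. The members were 8 constant region genes and 64 variable segments, of which 15 were Ighv, 46 Igkv and 3 Iglv. Just inside the minimum lay Igkv1-131 with 21 reads, and just outside it Igkv4-92 with 19. In the TG+ libraries alone 3 members would have held under 20 reads, and in the TG- libraries alone 9 would have. The annotation lists 361 symbols of this kind, so the variable segments described are those matched to a row by symbol. A further 5039 rows had no symbol and were not searched for segments, so any among them are missing from the counts and shares given here, and Igha, Ighd, Iglc1 and Iglc3 were not analysed here.

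The TG+ mice (TRACK, γ-HIF1αM3) carried a mutant HIF1α that stays active in normal oxygen, driven by the GGT promoter in proximal tubule cells. The TG- mice were wild-type littermates. All were untreated C57BL/6 males aged 18 months. RNA came from a thin outer slice of the cortex of each kidney, and 2 kidneys of each of 3 TG+ mice (43-29, 43-49 and 43-75) and 3 TG- mice (43-26, 43-50 and 43-76) gave 12 RNAseq libraries. The kidneys of a mouse were summed for the tests, so that n = 3 mice in each group and totals lay between 48052131 and 60506785 reads per mouse. Levels are CPM, reads scaled to a common library size after TMM normalization, given in the order of the mice above. Calls rest on the quasi-likelihood test of edgeR, adjusted by Benjamini-Hochberg over 19399 genes, and required an adjusted p under 0.01 together with a ratio of TG+ to TG- over 2 or under 0.5.

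Antibodies are made by B cells and, in bulk, by plasma cells, which devote much of their RNA to immunoglobulin. A B cell joins 1 variable segment of each chain to a constant region, and keeps that choice in all its descendants. The heavy constant region sets the isotype: Ighm is used first, and class switching replaces it with a gamma, epsilon or alpha region. In a bulk sample, more cells of a type and more RNA per cell cannot be told apart.

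Of the variable segments that led the reads of their chain in a mouse, 5 are shown, namely a pair of kappa segments of close sequence and the heavy and lambda leaders. The kappa leaders Igkv5-39, Igkv11-106 and Igkv12-38 are not shown. Each sequence is the first 300 coding bases of the V exon, read 5′ to 3′ from the GENCODE M21 transcripts of GRCm38, all on the minus strand. Igkv4-57-1 (chr6:69544368-69544667) and Igkv4-63 (chr6:69377947-69378246) led the kappa reads in 2 TG+ mice with kidneys summed. Capitals in Igkv4-63 mark the bases that differ from Igkv4-57-1, which were 29 of 303 aligned bases of the exon, an identity of 90.4%, and Igkv4-57-1 held 6 further bases.
Igkv4-57-1: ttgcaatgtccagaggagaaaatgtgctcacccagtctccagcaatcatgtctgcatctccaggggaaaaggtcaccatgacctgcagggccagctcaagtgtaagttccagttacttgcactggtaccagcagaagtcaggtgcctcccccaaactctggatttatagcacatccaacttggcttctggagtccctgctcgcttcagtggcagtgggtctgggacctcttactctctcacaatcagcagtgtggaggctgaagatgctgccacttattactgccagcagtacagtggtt
Igkv4-63: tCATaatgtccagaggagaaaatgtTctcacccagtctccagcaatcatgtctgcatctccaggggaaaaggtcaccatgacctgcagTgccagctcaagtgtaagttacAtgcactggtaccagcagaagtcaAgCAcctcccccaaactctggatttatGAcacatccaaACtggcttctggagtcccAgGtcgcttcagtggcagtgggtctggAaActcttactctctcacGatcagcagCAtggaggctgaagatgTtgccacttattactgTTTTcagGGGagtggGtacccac
Ighv1-18 (chr12:114682637-114682936) led the summed heavy chain reads of 43-49, Ighv3-6 (chr12:114288159-114288458) led them in the other mice, and Iglv1 (chr16:19085022-19085321) led the lambda reads in all 6. Capitals in these mark bases under a stretch of 51 bases, the read length, that a transcript of another annotated gene also holds.
Ighv1-18: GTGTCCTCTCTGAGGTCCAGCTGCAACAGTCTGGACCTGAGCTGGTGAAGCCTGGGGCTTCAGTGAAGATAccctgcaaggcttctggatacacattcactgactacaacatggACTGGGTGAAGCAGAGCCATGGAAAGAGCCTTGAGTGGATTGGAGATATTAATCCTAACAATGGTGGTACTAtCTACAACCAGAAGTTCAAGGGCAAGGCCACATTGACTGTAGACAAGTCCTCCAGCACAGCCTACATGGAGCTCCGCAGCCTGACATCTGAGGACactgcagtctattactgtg
Ighv3-6: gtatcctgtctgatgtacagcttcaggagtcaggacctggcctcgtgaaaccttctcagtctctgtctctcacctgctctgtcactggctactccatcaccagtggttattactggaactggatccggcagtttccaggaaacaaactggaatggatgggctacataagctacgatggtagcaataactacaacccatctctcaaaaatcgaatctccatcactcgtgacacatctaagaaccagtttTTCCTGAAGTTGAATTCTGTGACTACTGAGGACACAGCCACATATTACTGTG
Iglv1: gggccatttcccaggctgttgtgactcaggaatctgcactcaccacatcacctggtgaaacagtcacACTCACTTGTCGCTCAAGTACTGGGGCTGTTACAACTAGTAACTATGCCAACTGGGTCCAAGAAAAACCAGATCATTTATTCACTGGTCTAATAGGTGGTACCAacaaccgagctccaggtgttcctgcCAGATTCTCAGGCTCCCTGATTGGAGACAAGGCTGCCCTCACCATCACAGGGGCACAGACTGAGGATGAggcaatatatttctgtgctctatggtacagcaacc
The capitals covered 237 bases of Ighv1-18, 52 of Ighv3-6 and 173 of Iglv1. Of 62 variable segments with a coding transcript, 43 shared at least 1 such stretch with another gene and 6 shared over 50% of their stretches, so how reads were divided among related segments is uncertain. Among the constant regions the highest shared percentage was 10%, in Iglc2, and Igkc and Ighm shared 0%.

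Light chain constant regions were higher in TG+ cortex. Igkc, the kappa constant region (chromosome 6, 70726435 to 70726966, plus strand, GRCm38), took 73.0% of all constant region reads. Its level was 713.7, 1179 and 1113 CPM in the TG+ mice and 175.5, 218.2 and 229.6 CPM in the TG- mice. Every TG+ mouse lay above every TG- mouse. The means were 1002 ± 252 and 207.8 ± 28.5 CPM (SD, n = 3 mice each), and the fitted log2 fold change was 2.27 (SE 0.19, edgeR adjusted p = 0.000238). Iglc2, a lambda constant region, stood at 4.39, 7.09 and 7.69 CPM in TG+ and at 2.53, 1.51 and 0.901 CPM in TG-. It too was apart between the groups, with a log2 fold change of 1.95 (SE 0.36, edgeR adjusted p = 0.00657). These were the 2 constant region genes called higher among 6 tested, where 3.77% of all tested genes were called higher. The adjusted p of Iglc2 passed the threshold without 43-29 or 43-26 and missed it without any 1 of the other mice, with 43-75 (0.0251) and 43-50 (0.027) giving the highest values. It also missed the threshold with kidney 1 alone (edgeR adjusted p = 0.0292) and with the named pairs of mice as a block (edgeR adjusted p = 0.0126).

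Heavy chain constant regions were less separated. Ighg1, of the IgG1 heavy chain, was at 4.57, 10.7 and 4.52 CPM in TG+ and at 1.91, 2.52 and 1.66 CPM in TG-. The groups did not overlap, and the log2 fold change of 1.70 (SE 0.36) missed the threshold at an edgeR adjusted p of 0.0122. Ighg2b had 21.8, 42.4 and 13.8 CPM in TG+ and 6.73, 15.9 and 5.85 CPM in TG-. In Ighg2c the levels were 20.6, 34.8 and 7.85 CPM against 9.32, 15.8 and 3.95 CPM. Both overlapped between the groups, since 43-75 lay below 43-50, and their edgeR adjusted p was 0.062 and 0.198. With the pairs of mice that the deposited table names as a block, Ighg1, Ighg2b and Ighg2c were all called higher, at edgeR adjusted p of 0.00174, 0.000301 and 0.000262, although the deviations of the pairs did not establish the pairing. Ighg1 was also called by DESeq2 (adjusted p = 2.66e-06), and by edgeR with no filter (adjusted p = 0.00496), with library size alone (0.00999), with each kidney as its own library (0.00444; 0.00207 with the kidney number as a block), without 43-49 (0.00764), with 43-49 represented by kidney 2 alone (0.00528) and without 43-49 and 43-50 (0.00374). Ighg2b was also called by edgeR with each kidney as its own library (adjusted p = 0.00994), with kidney 2 alone (0.0086) and without 43-49 and 43-50 (0.00983). Ighg3, of the IgG3 heavy chain, and Ighe, of IgE, did not pass the filter on low counts. Ighg3 held 187 reads and Ighe 22.

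Ighm, the mu constant region of IgM, overlapped between the genotypes. Its level was 40.6, 651.2 and 17.0 CPM in TG+ and 20.2, 272.7 and 9.72 CPM in TG-. Mouse 43-49 and mouse 43-50 stood far above the other 4 mice, the first being TG+ and the second TG-, and the deposited table names them as a pair. In each of its 3 pairs the TG+ mouse was higher, and with the pairs as a block in the fit the log2 fold change was 1.04 and the gene was called (edgeR adjusted p = 0.000783). The fitted log2 fold change was 1.23 with an SE of 1.51 (edgeR adjusted p = 0.595). Without 43-49 it turned to -1.81, without 43-50 it was 3.98, and without both it was 0.94 (edgeR adjusted p = 0.22, chosen after seeing the data).

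**Figure D1:**
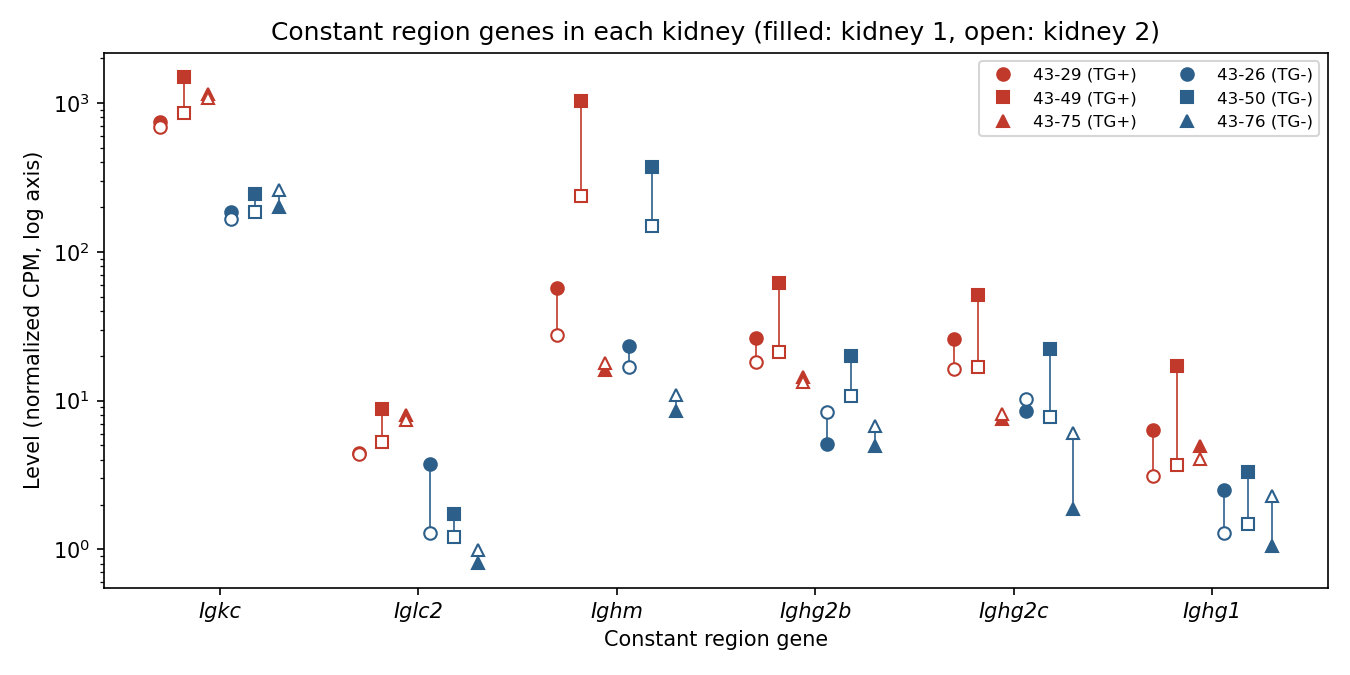
Level of 6 tested constant region genes in each kidney, in normalized CPM on a log axis; red marks are TG+ mice, blue marks TG- mice, filled marks kidney 1 and open marks kidney 2, and a line joins the kidneys of a mouse. The red and blue marks of Igkc are apart, while 43-49 (TG+) and 43-50 (TG-) are high together in Ighm.

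Summed over the 8 constant regions, the level was 1299 CPM on average in TG+ and 332 CPM in TG-, a ratio of 3.92. Without Ighm the ratio was 4.6, from 765.3, 1276 and 1147 CPM in TG+ to 196.1, 254.7 and 242.0 CPM in TG-. Over the 4 IgG genes it was 2.54, from 47.1, 90.1 and 26.3 CPM to 18, 35 and 11.5 CPM. The IgG sum of 43-75 lay below that of 43-50.

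The groups overlapped in isotype composition. Among heavy constant reads divided by gene length, Ighm made up 40.6, 85 and 33.2% in TG+ and 47.3, 86.1 and 39.7% in TG-. The IgG genes together made up 59.3, 15.0 and 66.6% in TG+ and 52.5, 13.9 and 60.2% in TG-. Mouse 43-49 and mouse 43-50 again stood together, and the groups overlapped in every isotype share. Within IgG, and again per length, Ighg2b took 49.7, 50.0 and 54.7% in TG+ and 40.7, 49.1 and 53.8% in TG-. Ighg2c took 39.2, 34.2 and 26.0% in TG+ and 47.0, 40.6 and 30.2% in TG-, and Ighg1 between 8.06 and 18.6% in the 6 mice. Ighg3 took 2.65% of IgG in 43-49 and 2.25% in 43-50, and at most 0.725% in the other 4 mice. Igkc made up between 99.2 and 99.8% of Igkc and Iglc2 together per length. The deposited table names the mice in pairs of TG+ and TG-, 43-29 with 43-26, 43-49 with 43-50 and 43-75 with 43-76. In each pair the TG+ mouse had the lower Ighm share and the higher IgG share. These shares leave out Igha.

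**Figure D2:**
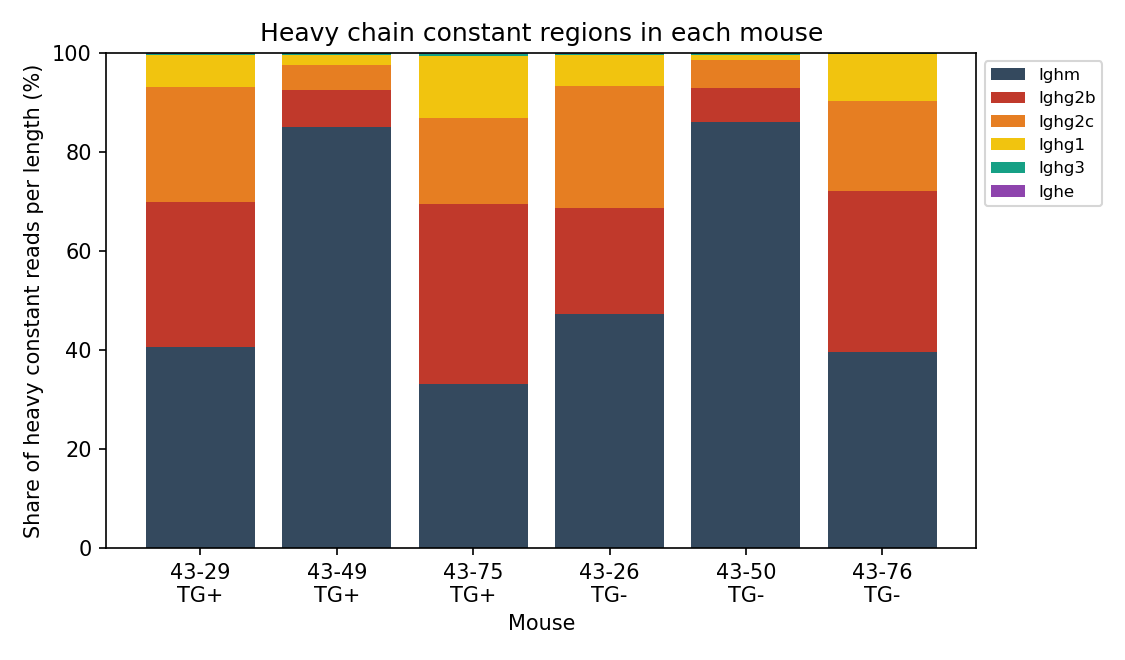
Share of each heavy chain constant region among heavy constant reads per length, in percent, for each mouse. Ighm fills 85% of the bar of 43-49 and 86.1% of that of 43-50, and between 33.2 and 47.3% of the other bars.

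The ratio of light to heavy chain reads also varied between mice. Per length, Igkc and Iglc2 together were 30.3, 6.53 and 92.5 times the sum of the heavy constant regions analysed, which leaves out Igha and Ighd, in TG+ and 17.6, 2.93 and 39.8 times in TG-. For each 100 reads of the same heavy constant regions there were 41.8, 7.96 and 86.0 Ighv reads in TG+ and 16.3, 2.73 and 33.5 in TG-. Mouse 43-49 and mouse 43-50 were lowest of their group in both measures. In each pair that the deposited table names, the TG+ mouse was higher in both measures. For each 100 Igkc reads there were 19.0, 19.1 and 18.2 Igkv reads in TG+ and 19, 12 and 15.8 in TG-.

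Variable segments were widely higher in TG+. Of 64 segments, 58 passed the filter and 28 of those were called higher, namely 5 of 12 Ighv, 22 of 43 Igkv and 1 of 3 Iglv. Over all tested genes 3.77% were called higher. The median log2 fold change of the 58 was 2.58, against 0.01 over all tested genes. In 42 of the 58 every TG+ mouse lay above every TG- mouse, as did 23.4% of all tested genes. By edgeR 0 members were called lower, where 0.211% of all tested genes were, and DESeq2 called 0 lower too. At an unadjusted p under 0.05 also 0 were lower, and the single tested member with a log2 fold change below 0 was Igkv1-99, at -0.10 (SE 0.72). A segment could enter the test through its TG+ reads, so these counts are a description. In 32 of the 58 every TG- mouse was above the filter's level of 0.193 CPM, and 21 of those were called higher. Among the other 26, 7 were called, including Igkv9-123 and Igkv4-83, which held under 20 reads in TG-. The annotation lists Igkv4-83 as a pseudogene. The 6 segments that were not tested held between 21 and 33 reads each. With 1 mouse left out, the number of segments called higher was 12 without 43-26, 12 without 43-50, 13 without 43-76, 18 without 43-75, 23 without 43-49 and 31 without 43-29.

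**Figure D3:**
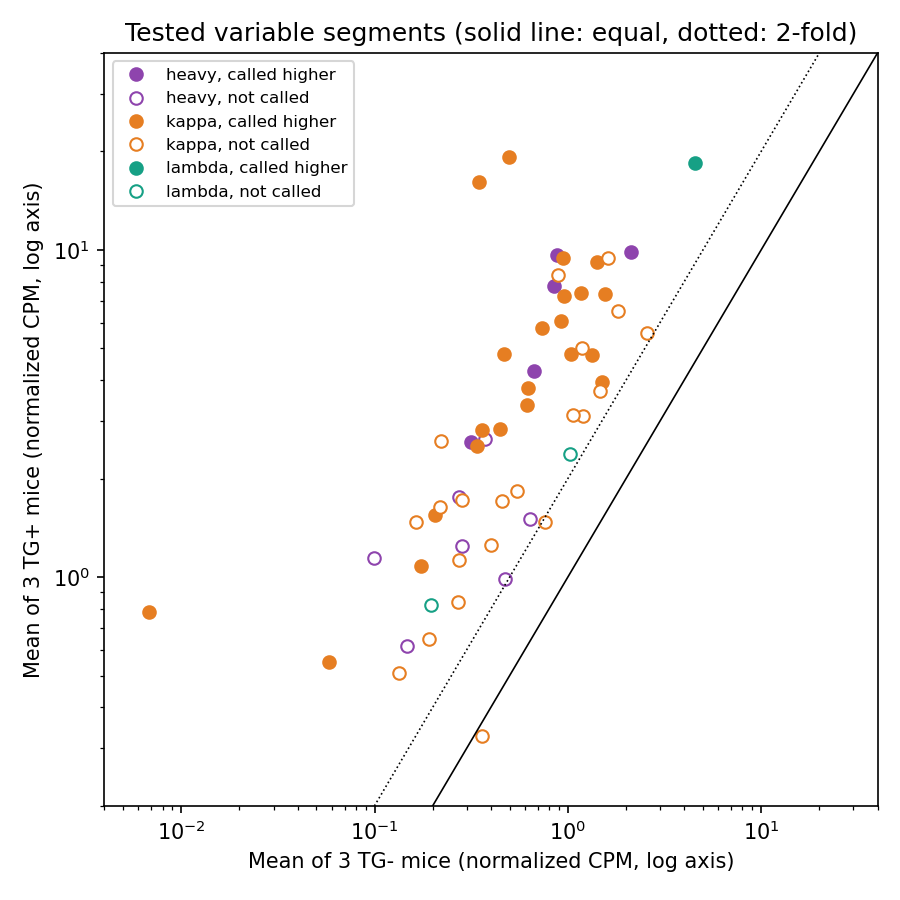
Mean level of each of the 58 tested variable segments in 3 TG- mice (x axis) and 3 TG+ mice (y axis), in normalized CPM on log axes; filled marks were called higher, and colour gives the chain. Of the 58, 57 lie above the solid line of equality and 1, Igkv1-99, lies below it.

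Among the heavy chain segments, Ighv3-6 was at 10.4, 10.8 and 8.30 CPM in TG+ and at 1.31, 2.77 and 2.25 CPM in TG-. The TG+ mice were alike and all higher, with a log2 fold change of 2.22 (SE 0.24, edgeR adjusted p = 0.000734). Ighv1-18 was at 4.37, 19.1 and 5.50 CPM in TG+ and at 0.604, 0.893 and 1.15 CPM in TG-. It was called higher, with a log2 fold change of 3.46 (SE 0.62, edgeR adjusted p = 0.00613), and 43-49 was well above the other TG+ mice. Without 43-49 its log2 fold change was 2.48, and its call was lost without 43-26, 43-50 or 43-76 (edgeR adjusted p from 0.0226 to 0.0257) and with kidney 1 alone (edgeR adjusted p = 0.0106). Ighv14-4 had 0.485, 1.13 and 1.35 CPM in TG+ and 0.234, 1.10 and 0.0819 CPM in TG-, and its groups overlapped (edgeR adjusted p = 0.344).

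Among the kappa segments, Igkv4-57-1 was at 4.47, 30.9 and 22.3 CPM in TG+ and at 0.175, 0.210 and 1.11 CPM in TG-. Its log2 fold change was 5.31 (SE 0.87, edgeR adjusted p = 0.00429). It is among the 7 called segments that did not reach 0.193 CPM in every TG- mouse, 43-26 being under it, so its difference is given as a description. Igkv4-63 was at 2.95, 37.0 and 8.17 CPM in TG+ and at 0.253, 0.403 and 0.389 CPM in TG-. It had a log2 fold change of 5.52 (SE 1.05, edgeR adjusted p = 0.00776). In both segments the groups were apart, with TG+ higher. The call of Igkv4-57-1 was kept without 43-29 and lost without any 1 of the other mice (edgeR adjusted p from 0.0111 to 0.02), with log2 fold changes of 4.79 to 6.62. The call of Igkv4-63 was lost without 43-75, 43-26, 43-50 or 43-76 (edgeR adjusted p from 0.0135 to 0.0358) and with kidney 1 alone (edgeR adjusted p = 0.0128), and without 43-49 its log2 fold change was 3.98. Igkv9-123 had 119 reads in TG+ and 1 read in TG- (ratio 130.2 per total read, 95% exact interval 22.9 to 5185.5, which covers counting error only). It passed the minimum of 20 reads and the filter through its TG+ reads alone, so that difference is a description and was fixed in part by the rule.

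Other kappa segments with many reads were higher too. Igkv5-39 was at 12.7, 8.09 and 6.85 CPM in TG+ and at 1.01, 2.28 and 0.941 CPM in TG- (edgeR adjusted p = 0.00195). Igkv6-32 was at 4.65, 11.7 and 5.60 CPM against 1.60, 0.823 and 2.23 CPM (edgeR adjusted p = 0.00858). Igkv8-30 was at 2.51, 8.71 and 17.1 CPM against 0.936, 0.770 and 1.13 CPM (edgeR adjusted p = 0.00823). All 3 were called higher. Igkv6-32 and Igkv8-30 kept the call without 43-29 and lost it without any 1 of the other mice (edgeR adjusted p from 0.0159 to 0.0354), and Igkv5-39 lost it without 43-76 (edgeR adjusted p = 0.0107). With kidney 2 alone Igkv6-32 and Igkv8-30 also lost it (edgeR adjusted p = 0.0113 and 0.0109), as did Igkv6-32 with the named pairs as a block (edgeR adjusted p = 0.0153) and Igkv8-30 with kidney 2 alone for 43-49 (edgeR adjusted p = 0.0104). Igkv15-103, highest in 43-75 at 18.3 CPM, and Igkv8-27, highest there at 14.2 CPM, were apart between the groups but missed the threshold (edgeR adjusted p = 0.0214 and 0.0251). With the named pairs of mice as a block both were called higher (edgeR adjusted p = 0.00843 and 0.000696). Both were also called with each kidney as its own library (edgeR adjusted p = 0.000561 and 0.000508). Igkv15-103 was called by DESeq2 (adjusted p = 0.00631) and with no filter (edgeR adjusted p = 0.00944), and Igkv8-27 without 43-29 (edgeR adjusted p = 0.00764).

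Some segments were led by 1 mouse. Igkv12-89 was at 5.34, 2.40 and 0.0797 CPM in TG+ and at 0.468, 0.0525 and 0.143 CPM in TG-, so that a TG+ mouse lay below TG- mice. Ighv1-47 was at 2.83 CPM in 43-29 and at 0.353 and 0.239 CPM in the other TG+ mice, against 0.136, 0.0175 and 0.143 CPM in TG-. With log2 fold changes of 3.56 (SE 1.19) and 3.52 (SE 1.15), neither was called. Both were under the filter's level of 0.193 CPM in some TG- mice. Ighv1-47 passed it in the 3 TG+ mice alone, and Igkv12-89 in 2 TG+ mice and 43-26. Without 43-29 the log2 fold changes were 2.5 and 1.60, and without 43-75 Igkv12-89 was called (edgeR adjusted p = 0.00851). Igkv11-106 stood at 5.32 CPM in the TG- mouse 43-26, within the range of the TG+ mice (4.38 to 6.95 CPM). Igkv12-38 stood at 3.52 CPM in the TG- mouse 43-76, above 2 of the 3 TG+ mice. Igkv3-10 was at 0.566, 1.62 and 2.21 CPM in TG+ and at 0.214, 1.56 and 0.512 CPM in TG-, also with overlap.

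Among lambda segments Iglv1, the variable segment with the most reads (3565), was at 14.4, 13.8 and 27.2 CPM in TG+ and at 3.49, 3.61 and 6.51 CPM in TG-. It was called higher, with a log2 fold change of 2.03 (SE 0.33, edgeR adjusted p = 0.00433), and lost the call without 43-26 (edgeR adjusted p = 0.0155) or 43-50 (edgeR adjusted p = 0.0189), and with kidney 2 alone (edgeR adjusted p = 0.0184). It took 85.3, 82.7 and 86.7% of Iglv reads in TG+ and 57.6, 87.7 and 92.2% in TG-, so 43-26 stood apart.

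The share of each segment among its chain's reads differed from mouse to mouse. With the kidneys of a mouse summed, kappa reads were led by Igkv5-39 in 43-29 (9.33%), Igkv4-63 in 43-49 (16.4%) and Igkv4-57-1 in 43-75 (11%). In TG- they were led by Igkv11-106 in 43-26 (15.9%), Igkv5-39 in 43-50 (8.72%) and Igkv12-38 in 43-76 (9.70%). The annotation lists Igkv11-106 as a pseudogene without a coding transcript, so its shared stretches were not counted. In 4 mice both kidneys had the leader of their mouse. In 43-49, kidney 1 was led by Igkv4-63 (19.7%) and kidney 2 by Igkv4-57-1 (10.2%, with Igkv4-63 at 9.18%). In 43-50, kidney 1 was led by another segment (8.40%, with Igkv5-39 at 8.18%) and kidney 2 by Igkv5-39 (9.60%). The effective number of kappa segments, the inverse of the summed squared shares, was 24.3, 15.5 and 20.2 in TG+ and 17.2, 23.1 and 24.1 in TG-, with overlap. In 43-49 it was 12.8 in kidney 1 and 22.7 in kidney 2. Behind these values lay 6708 to 12781 kappa reads per TG+ mouse and 1490 to 1773 per TG- mouse.

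Heavy chain reads were led by Ighv3-6 in 5 of the 6 mice, with 20.9 to 32.9% of Ighv reads, and by Ighv1-18 in 43-49 with 32.4%, again with kidneys summed. In 43-49 this held for kidney 1, where Ighv1-18 took 36.7%, while kidney 2 was led by Ighv6-3 (26.2%) with Ighv1-18 at 22.6%. The effective number of heavy segments was 6.75, 5.05 and 7.14 in TG+ and 8.85, 5.85 and 5.74 in TG-. The groups overlapped in this measure as well, and 320 to 480 reads lay behind each TG- value.

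The kidneys of 1 mouse were most alike in kappa segment use. The overlap of 2 libraries, the sum over segments of the smaller share, was 80.9 to 93.5% for kappa between the kidneys of 1 mouse. Between mice it was 52.8 to 75.4% within a genotype and 45.2 to 75.4% across genotypes, so the ranges within and between mice did not meet. For kappa each of the 12 libraries was most like the other kidney of its own mouse, and for heavy chains 11 of 12 were. The heavy chain overlap was 79.6 to 94.6% within a mouse, 59.1 to 75.8% between mice of a genotype and 53.2 to 86.7% across genotypes. The pairs across genotypes were thus no less alike than pairs of 1 genotype by their medians, 62.5 and 61.9% for kappa and 71.5 and 69.8% for heavy chains. For the 3 lambda segments the overlap was 80.3 to 99.8% within a mouse, 57.2 to 99% between mice of a genotype and 61.6 to 97.2% across genotypes, so these ranges overlapped.

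**Figure D4:**
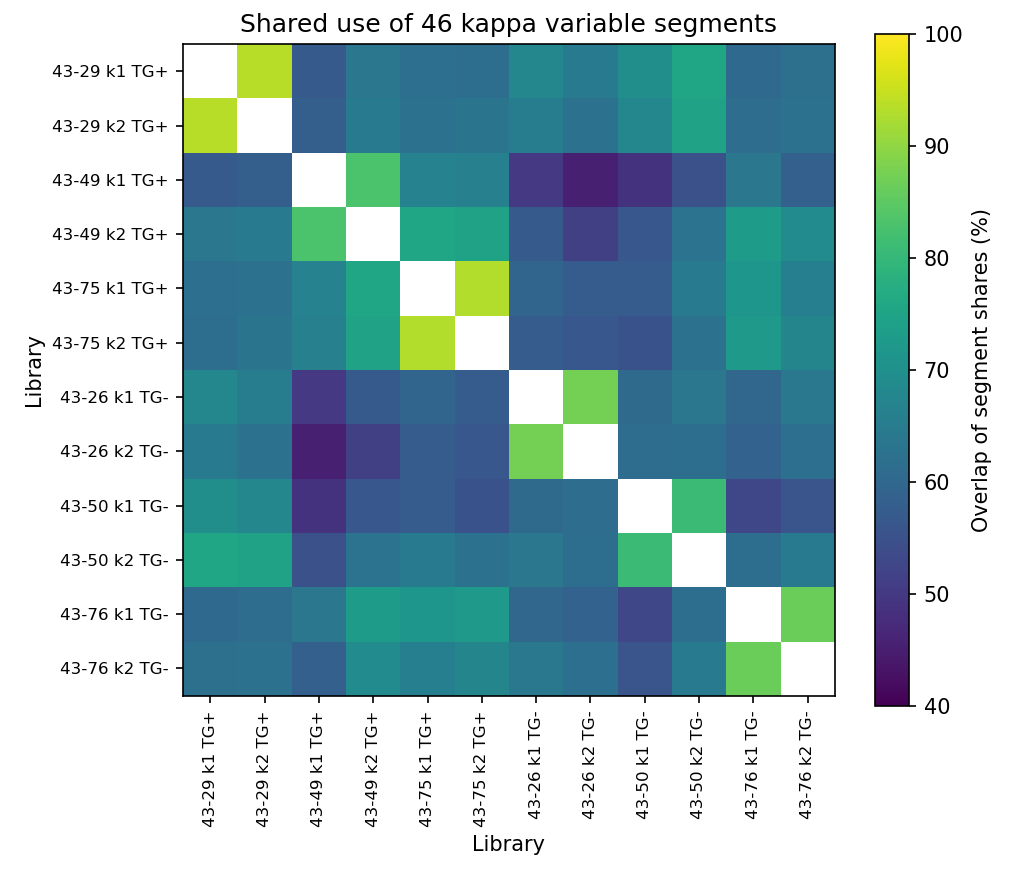
Overlap in percent of the shares of 46 kappa variable segments between each pair of 12 libraries (k1 and k2 are the kidneys of a mouse). The 6 bright pairs beside the diagonal are the kidneys of 1 mouse, at 80.9 to 93.5%, and all other pairs lie between 45.2 and 75.4%.

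Levels differed between the kidneys of 43-49. Ighm was at 1028 CPM in its kidney 1 and at 238.2 CPM in kidney 2. Ighg1 was 4.65 times, Igkv4-63 4.34 times and Ighm 4.32 times as high in kidney 1. Ighg3 (3.42), Ighv1-18 (3.31), Ighg2c (3.04) and Igkv4-57-1 (3.02) also passed 3 times. These were 7 of the 46 members with 100 or more reads in that mouse, while 0.119% of all genes with such reads passed 3 times. Igkc was 1.75 times as high and Ighv3-6 1.76 times. In 43-50, Ighm was at 370.3 CPM in kidney 1 and 148.5 CPM in kidney 2, a ratio of 2.49. In the other mice the kidney ratio of Ighm lay between 0.786 and 2.07. With 43-49 represented by its kidney 2 alone, a setting chosen after seeing the data, Ighm had a log2 fold change of -0.05 (edgeR adjusted p = 0.982), 3 constant regions and 27 variable segments were called higher, and Igkc had a log2 fold change of 2.10.

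The other genes of the B lineage were taken from lists. For every list below, the share over all tested genes was 3.77% called higher and 0.211% called lower. Of 15 plasma cell genes, all tested, 7 were called higher, with a median log2 fold change of 1.35. Jchain, which links IgM and IgA into polymers, was at 298.3, 511.6 and 537.4 CPM in TG+ and at 66.4, 68.0 and 97.8 CPM in TG-. All TG+ mice were above all TG- mice, with a log2 fold change of 2.54 (SE 0.25, edgeR adjusted p = 0.000427). The TG- mouse with high Ighm, 43-50, was not high in Jchain. Pou2af1, a coactivator of immunoglobulin transcription, was at 6.41, 8.46 and 8.44 CPM in TG+ and at 2.11, 2.15 and 1.78 CPM in TG- (edgeR adjusted p = 0.000142). Mzb1, a chaperone for immunoglobulin in the endoplasmic reticulum, had a log2 fold change of 1.87 (edgeR adjusted p = 0.00128), and Irf4, a transcription factor needed by plasma cells, 1.71 (edgeR adjusted p = 0.000373). Derl3, Slamf7 and Tnfrsf13b were the other 3 called. Prdm1, the regulator of plasma cell differentiation, and Sdc1, which encodes CD138, had adjusted p of 0.00208 and 0.00101 by edgeR but log2 fold changes of 0.98 and 0.90, under the fold limit. Tnfrsf17, the BCMA receptor, had a log2 fold change of 2.01 (edgeR adjusted p = 0.0143). Xbp1, which drives secretion and is not limited to plasma cells, overlapped between the groups with a log2 fold change of 0.25. Eaf2 also overlapped, with a log2 fold change of 0.08. Fkbp11 (log2 fold change 0.29), Txndc5 (0.35) and Cd38 (0.69) were not called either.

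Of 14 B cell genes, 13 were tested and 3 were called higher (7 by DESeq2), with a median log2 fold change of 1.25. Cd79a, of the B cell receptor, was at 1.74, 3.10 and 2.93 CPM in TG+ and at 0.507, 0.648 and 0.471 CPM in TG- (log2 fold change 2.25, edgeR adjusted p = 0.00107). Its partner Cd79b (1.23, edgeR adjusted p = 0.00544) and Cd37 (1.13, edgeR adjusted p = 0.00254) were also called. In 12 of the 13 the groups were apart with TG+ higher, among them Ms4a1, which encodes CD20 (log2 fold change 1.30), which was not called. Over all tested genes 23.4% were apart in this way. Pax5, a defining B cell factor, held 60 reads over all libraries and was not tested. Summed over the list, the level was 16 to 25.9 CPM in TG+ and 7.59 to 9.35 CPM in TG-. In TG+ it was highest in 43-49, while in TG- 43-50 (9.35 CPM) and 43-26 (9.26 CPM) were close.

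**Figure D5:**
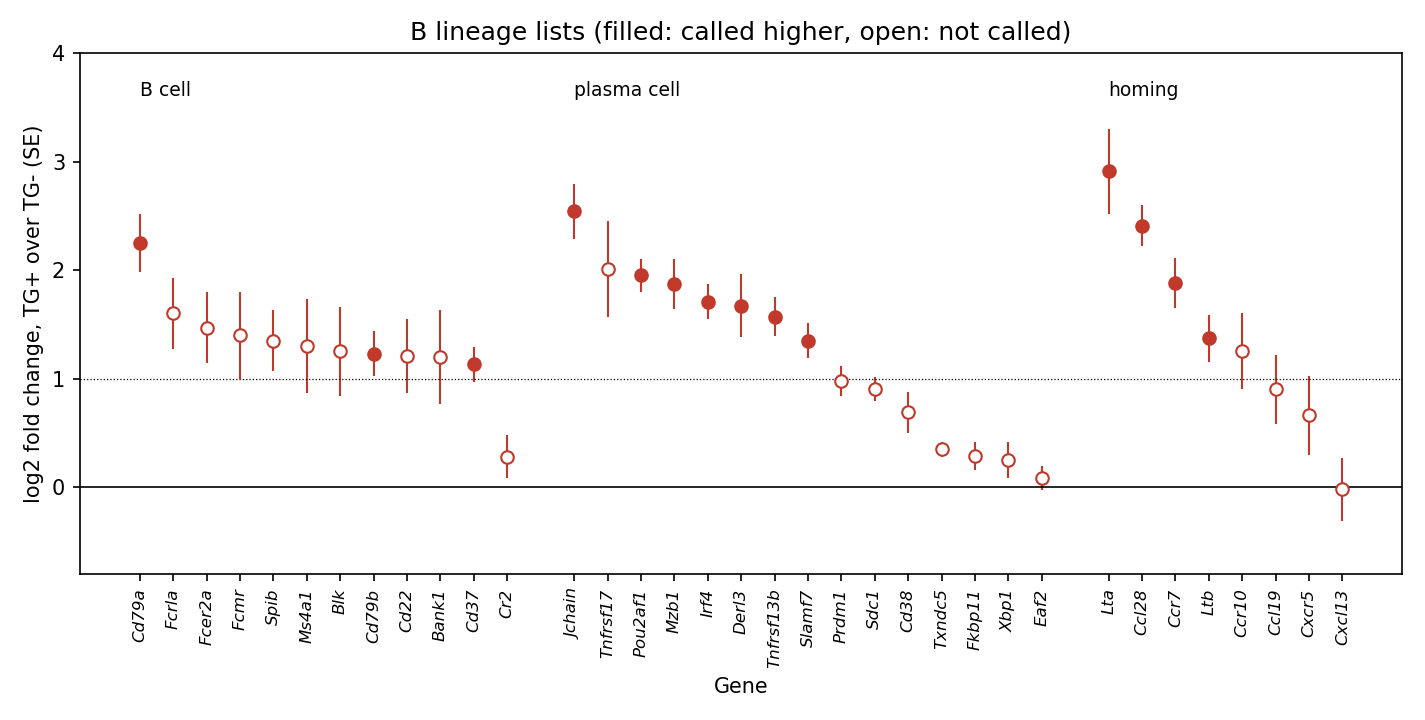
Fitted log2 fold change (TG+ over TG-, with its SE) of tested genes of the B cell, plasma cell and homing lists, with 1 B cell gene not drawn; filled marks were called higher and the dotted line is a 2-fold change. Jchain (2.54) leads the plasma cell list and Cd79a (2.25) the B cell list.

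Of 8 homing chemokines and receptors in the table, 4 were called higher, which were Ccl28, Ccr7, Ltb and Lta. Ccl28, an epithelial chemokine that draws antibody-secreting cells, was at 415.6, 322.1 and 348.3 CPM in TG+ and at 85.1, 50.5 and 68.7 CPM in TG-. Its log2 fold change was 2.41 (SE 0.19, edgeR adjusted p = 0.00015), with the groups far apart. Ccr10, a receptor for Ccl28, was at 0.788, 1.55 and 1.49 CPM against 0.409, 0.420 and 0.798 CPM, and was not called (edgeR adjusted p = 0.0352). Of 8 tested survival factors and receptors 1 was called higher by edgeR, Tnfrsf13b, and 3 by DESeq2.

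Of 9 genes of antigen receptor assembly and class switching, 3 were tested and 0 were called by edgeR or DESeq2. At an unadjusted p under 0.05 there was 1, Vpreb3, with an edgeR adjusted p of 0.0172. Rag1 and Rag2, the recombinase of receptor assembly, held 1 read each over all 12 libraries. Of 11 receptors and carriers of immunoglobulin, 1 was called and it was lower. At an unadjusted edgeR p under 0.05 there were 10, of which 5 had a log2 fold change above 0 and 5 below 0. Fcamr, a receptor for IgA and IgM, was at 35.4, 29.4 and 28.0 CPM in TG+ and at 59.9, 80.2 and 73.4 CPM in TG- (log2 fold change -1.20, edgeR adjusted p = 0.000597). Fcgrt, the neonatal Fc receptor chain, and Lrp2, the endocytic receptor megalin, had log2 fold changes of -0.37 and -0.46, under the fold limit, at edgeR adjusted p of 0.00845 and 0.00213. Pigr, the epithelial transporter of polymeric immunoglobulin, overlapped between the groups, with a log2 fold change of 0.03.

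In lists of other cell types, some genes that were not called missed the fold limit alone. In the T cell list 2 of 10 were called higher, Cd3e and Cd4, and 3 by DESeq2. At an unadjusted edgeR p under 0.05 there were 8. The summed level of the list was 12.5 to 16.5 CPM in TG+ and 7.98 to 8.91 CPM in TG-. In the macrophage list 0 of 9 were called by edgeR or DESeq2 and 8 had an unadjusted edgeR p under 0.05, with a summed level of 190.6 to 219.1 CPM in TG+ and 113.3 to 151.4 CPM in TG-. Csf1r, Cd68 and Itgam were higher at an edgeR adjusted p under 0.01 but within the fold limit. In the proximal tubule list 1 of 10, Slc22a6, was called lower, and 8 had an unadjusted edgeR p under 0.05. Slc34a1, Lrp2, Slc22a8, Miox and Aqp1 were lower at an edgeR adjusted p under 0.01 but within the fold limit. The summed level of this list was 25867 to 28958 CPM in TG+ and 34321 to 36640 CPM in TG-. The part of these cell types in the immunoglobulin result was not tested.

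The tested genes outside the members whose log2 CPM over the 6 mice was most like the summed constant region level were Ormdl3, Papln, Fcrla, D630003M21Rik, Arl15, Apol6, Cdk18, Kifc3, Fancf and Bhlhe22. Their Pearson correlation lay between 0.9922 and 0.9997 over 6 mice that fall into both genotypes, and it describes the levels in these mice alone. These genes were picked for the highest correlation among all tested genes outside the members. Fcrla is a B cell gene of the list above.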

How the data were processed

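Kidney cortex RNAseq libraries from 3 TG+ and 3 TG- mice, with both kidneys of each mouse, were analysed. The authors deposited read counts per gene, without normalization, beside RPKM values. Reads were 51 bases long and, per the submitters' processing notes, placed on mm9. The study's methods name the Tuxedo tools for data analysis in general. The program that made these counts, the annotation release and use of strand were not given in the sources used here. The deposited RPKM served here only to derive the relative length of each gene. Columns of the authors' own comparisons (fold change, p-values and q-values) were not used.

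The kidneys of a mouse were summed. Genes were filtered by filterByExpr, scaled by TMM (factors 0.944 to 1.07) and tested with edgeR 4.0.16 (R 4.3.3, limma 3.58.1). DESeq2 1.42.0 was an alternative. The procedure was tested on simulated data. Symbols, positions and sequences came from GENCODE M21 (GRCm38), matching 32642 of 37681 genes, and 5039 genes had no symbol. No coordinate was carried between builds. Shares and overlaps are descriptions without a test. No promoter window of a member was at hand, so the planned octamer search was not made.

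Named were all constant regions, the 10 variable segments with most reads, the leading segment of each chain in each mouse, the 5 highest and 3 lowest log2 fold changes among tested segments, genes of the plasma and B cell lists, called genes of other lists and the 10 most similar genes. Igkv4-92, Igkv4-83, Ighv6-3, Fcgrt, Lrp2, Ccr10, Vpreb3, Rag1, Rag2 and Pigr were added after their values were seen. Some list genes are counted but not reported singly here. The members and lists were chosen with earlier results of these data known.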

Additional observations from a re-analysis of the deposited data

Results flagged for a closer look

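A library was singled out where its gap to the nearest library of its genotype exceeded 0.625 of the range over 6 libraries, which chance gives in about 1 in 20 groups. This met 12 of 52 groups tested over 26 named members, and the kidneys of a mouse are not independent. Kidney 1 of 43-49 stood above the other TG+ libraries in 6 genes. Its Ighm was 1028 CPM (others 16.1 to 238.2), its Ighg2b 62.0 CPM (13.3 to 26.2) and its Ighg1 17.1 CPM (3.09 to 6.36). Its Ighg3 was 3.33 CPM (0.149 to 0.974), its Igkv4-63 58.5 CPM (2.76 to 13.5) and its Ighv1-18 28.7 CPM (4.20 to 8.66).

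Kidney 1 of 43-50 was high in Ighg3, at 1.16 CPM against 0 to 0.157 CPM in the other TG- libraries. Kidney 1 of 43-26 was high in Iglc2, at 3.72 CPM (0.807 to 1.73), and in Ighe, at 0.152 CPM (0 to 0.0404). Kidney 1 of 43-29 was high in Ighe, at 0.312 CPM (0.0372 to 0.117), and in Igkv9-123, at 2.00 CPM (0.370 to 0.855). Kidney 1 of 43-76 held the only Igkv9-123 read of TG-, at 0.0404 CPM. The Ighe and Igkv9-123 values rest on few reads.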

How the results depend on the processing

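The main counts were 732 genes higher and 41 lower, with 2 constant regions and 28 variable segments higher. Leaving out 1 mouse at a time gave 469 to 633 genes higher, 29 to 50 lower, 1 to 2 constant regions, 12 to 31 variable segments and a summed constant region ratio of 2.97 to 5.55. The constant regions were 4 with each kidney as its own library and 1 with kidney 1 alone. With library size alone, 22 genes were lower. At an adjusted p under 0.05, 72 were lower, and without a fold limit 1534 were higher and 824 lower. Without 43-49 and 43-50 (chosen after seeing the data) 474 genes were higher, 21 lower and 14 variable segments higher, with fewer mice tested. DESeq2 gave 3 constant regions and 38 variable segments, and no filter gave 3 and 35. The median overlap of segment use between the kidneys of a mouse and the mean Ighm shares moved by less than 1 SD in the settings run on them.

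With the kidney number as a replicate block, 872 genes were higher and 56 lower, with 3 constant regions and 40 variable segments. With the pairs of mice that the deposited table names as a replicate block, 779 genes were higher and 46 lower, with 5 constant regions (Igkc, Ighm, Ighg1, Ighg2b and Ighg2c) and 34 variable segments. Iglc2 (edgeR adjusted p = 0.0126) and Igkv6-32 (0.0153) lost their calls there, and Igkv15-103 (0.00843) and Igkv8-27 (0.000696) gained one. Deviations of these pairs correlated at 0.337, 0.296 and -0.0236, so the pairing was not established.

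Of 401 log2 fold changes of 24 named members under alternatives, 322 kept direction and side of the threshold, 45 lost and 26 gained the call, and 8 reversed. Ighm lay between -1.81 (without 43-49) and 3.98 (without 43-50) with 1 mouse left out, and was -0.05 with 43-49 represented by kidney 2 alone. Igkv12-38 turned to -0.02 without 43-49 and 43-50. Igkv1-99 turned to 0.02 with library size alone, 0.04 with the paired mice as block, 0.39 with kidney 1 alone, 0.24 without 43-29 and 1.10 without 43-26, and was -0.59 without 43-50. The cause was not tested. Many segments lay under 1 CPM in TG-, where values rest on few reads.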
